A study of Mus musculus with 16 samples.

Results

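Hsp90 is the abundant cytosolic chaperone that folds and keeps active many signalling proteins, and it works with a set of co-chaperones that load clients and pace its ATPase cycle. The 8 genes described here are its 2 cytosolic paralogs, Hsp90aa1 and Hsp90ab1, and 6 co-chaperones, Ahsa1, Chordc1, Stip1, Fkbp4, Cdc37 and Ptges3. They were chosen by symbol from the 23356 genes of the tables, and all 8 were present. Hsp90aa1 is known as the stress-inducible paralog and Hsp90ab1 as the constitutive one. Both, with several co-chaperones, are known targets of heat shock factor 1, the transcription factor that is released when misfolded proteins occupy chaperones. Blocking the proteasome lets damaged and short-lived proteins pile up, and this is a textbook way to set off that response.

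The cells were NIH3T3, a mouse fibroblast line, that stably carried DD-sfGFP, a destabilizing domain joined to superfolder GFP. The transgene was shared by all groups, the controls included. The groups were untreated cells (control, 0 min) and cells collected 45, 135 and 405 min after bortezomib, a proteasome inhibitor whose dose the labels did not give, with 4 RNA-seq libraries each. The study's methods derive the line by sorting for high GFP and describe Shield-1, the ligand that keeps the domain folded, in routine culture. The labels did not say whether the replicates were separate cultures, so p-values measure only the spread between these 16 libraries. In bulk RNA, fewer cells and less RNA per cell cannot be told apart.

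The libraries fell into 2 kinds that crossed the time points. The share of fragments in ribosomal protein genes was between 4.25% and 9.42% in 7 libraries (replicates 1 and 2 of both the 45 and the 135 min groups and every 405 min replicate except replicate 2). It was between 0.398% and 1.21% in the other 9, which included all 4 controls. Depth ran from 570323 to 1469949 fragments in these 9 and from 1385231 to 19930371 in the 7. Summed over 10 fibroblast markers, the level was 3443 to 21598 CPM (fragments of a gene per 1000000 assigned to genes in that library) in the 7, with none at 0, and 267 to 1629 CPM in the 9, with up to 2 of the 10 at 0. Summed over 15 markers of other cell types, it was 3.05 to 225 CPM in the 7, with up to 12 of the 15 at 0, and 412 to 733 CPM in the 9. The share in olfactory and vomeronasal receptor genes was 0.00556% to 2.62% in the 7 and 4.16% to 5.13% in the 9. Since the summed level of the 8 members moved with these measures (6429 to 32174 CPM against 263 to 3386 CPM), each result is given over all libraries and within each kind. The part of library kind in the differences from control was not tested. Libraries over 4% hold no control, so in their difference from control treatment and library kind cannot be told apart. Only the 9 libraries of 4% or less allow a comparison with control within 1 kind.

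Sequence is shown for the promoters because heat shock factor reads a simple code, inverted GAA units set 2 bases apart. RefSeq promoter windows of 300 bases (250 before and 50 from the start of transcription, build GRCm38.p6) were matched for 6 of the 8 members, all but Hsp90aa1 and Hsp90ab1. They were searched on both strands for pairs of units, GAANNTTC or TTCNNGAA, and for longer runs of alternating units, in which the pairs overlap. A pair occurred in 15.1% of all 32851 windows, 3 units in a row in 0.603%, and 4 or more in 0.0244%. The Chordc1 window (chr9:18292017-18292316, plus strand) held 5 units in a row, which no other window did (1 window, 0.00304%). This run covered 23 bases, chr9:18292263-18292285, from 4 bases before the start to 19 bases into the transcript. The Chordc1 window held 5 pairs in all. Not all of them lie in this run or in the stretch printed below, which ends 30 bases into the transcript. The windows of Fkbp4 (chr6:128438607-128438906) and Cdc37 (chr9:21149885-21150184), both on the minus strand, held 1 pair each, at positions -151 to -144 and -170 to -163 from the start. Those of Ahsa1, Stip1 and Ptges3 held no pair, which says only that these letters were not in the window. The stretches around the matches are printed below 5′ to 3′, with the matched units and the bases between them in capitals.
Chordc1: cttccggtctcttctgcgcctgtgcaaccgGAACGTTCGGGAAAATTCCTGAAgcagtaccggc
Fkbp4: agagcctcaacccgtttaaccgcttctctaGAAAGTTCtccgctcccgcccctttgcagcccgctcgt
Cdc37: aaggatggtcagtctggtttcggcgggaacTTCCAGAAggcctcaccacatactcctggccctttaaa

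In the annotation of the older build NCBIM37, all 8 are protein-coding genes and lie apart on 6 chromosomes. Hsp90aa1 lies at chr12:111928815-111940938 (minus strand) and Hsp90ab1 at chr17:45704724-45710220 (minus strand). The co-chaperones are Ahsa1 at chr12:88607696-88614947 (plus), Chordc1 at chr9:18096711-18118444 (plus), Stip1 at chr19:7095186-7114516 (minus), Fkbp4 at chr6:128379753-128388695 (minus), Cdc37 at chr9:20942985-20954350 (minus) and Ptges3 at chr10:127496010-127514328 (plus). The values give a single count per gene symbol, so they do not tell exon from intron or one isoform from another. The coding sequences of Hsp90aa1 (2202 bases) and Hsp90ab1 (2175 bases) were 76.6% identical, with a longest identical run of 33 bases. In this alignment, a read longer than that run cannot match both coding sequences without a mismatch. Whether any reads were shared between the paralogs was not tested.

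Hsp90aa1 had its highest group mean at 405 min. The 4 controls, replicates 1 to 4, measured 216, 443, 208 and 84.4 CPM. At 45 min the values were 2659, 3193, 135 and 125 CPM. At 135 min they were 8758, 4821, 524 and 251 CPM, and at 405 min 11739.8, 2445, 14504 and 19656 CPM. Every 405 min library lay above every control, while at 45 and 135 min 2 and 3 of the 4 did. Hsp90ab1 measured 145, 589.7, 184 and 25.4 CPM in the controls and 2876, 2566, 28.6 and 16.02 CPM at 45 min. It stood at 5329, 3718, 452 and 76.1 CPM at 135 min and at 9486, 713, 5698 and 9668 CPM at 405 min. Here too all 4 libraries at 405 min exceeded all 4 controls, and the low libraries at each time were those with a ribosomal protein share of 4% or less.

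**Figure D1:**
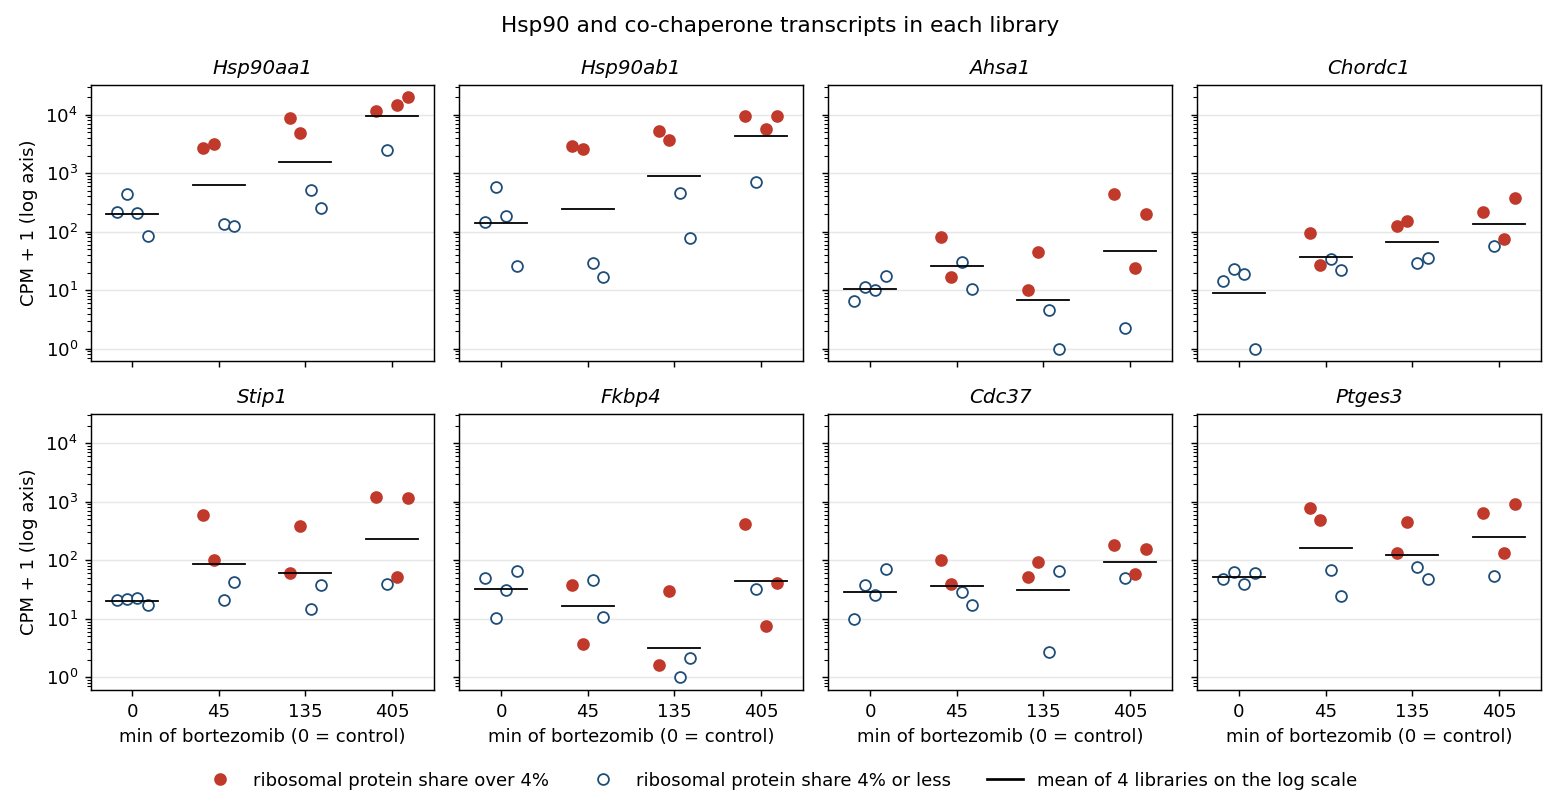
CPM + 1 on a log axis of the 8 members in each of the 16 libraries by minutes of bortezomib, with filled points for libraries over 4% ribosomal protein share, open points for the others, and a bar at the mean of 4 libraries on the log scale. All 4 points at 405 min lie above all 4 controls for Hsp90aa1, Hsp90ab1, Chordc1 and Stip1, and the filled points lie above the open points of the same time for both Hsp90 genes.

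Across all libraries, 5 of the 8 members had at least 1 count in every library and entered the edgeR quasi-likelihood fit of 5030 genes. None of them was called at an adjusted p under 0.05 in any of the 6 comparisons of time points, and neither was any other gene (0%, with the smallest adjusted p 0.285 at 405 min against control). At 405 min the log2 fold change against control was 6.06 (SE 1.87) for Hsp90aa1 and 5.15 (SE 1.95) for Hsp90ab1. It was 5.42 (SE 1.51) for Stip1, the adaptor that hands clients from Hsp70 to Hsp90, 3.50 (SE 1.21) for Ptges3, the p23 co-chaperone, and 2.01 (SE 0.90) for Cdc37, the kinase-loading co-chaperone. All 5 had an unadjusted edgeR p under 0.05, from 0.00211 for Stip1 to 0.0395 for Cdc37, as did 14.5% of all genes in the higher direction. The 45 min comparison had 2 such members (Stip1 and Ptges3, against 12.1% of genes), and that of 135 min had Hsp90aa1 (against 7.83%). DESeq2 on the same genes called Hsp90aa1 (adjusted p = 0.000772), Stip1 (0.00111), Hsp90ab1 (0.0126) and Ptges3 (0.0183) at 405 min, beside 6.98% of genes called higher, and Stip1 (0.0382) and Ptges3 (0.0417) at 45 min, beside 4.45%. The median log2 fold change of the 5 members at 405 min was 5.15, against 0.11 over all 5030 genes.

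These directions depended on what the libraries were scaled to. With the ribosomal protein counts as the library size, the median gene stood at -0.54, -0.67 and -2.25 on the log2 scale at 45, 135 and 405 min against control. On that scale Hsp90aa1 measured 2.81 (SE 0.99), Hsp90ab1 1.91 (SE 1.05) and Stip1 1.38 (SE 1.07) at 405 min, so these 3 stayed positive. Cdc37 turned to -1.34 (SE 1.24) and Ptges3 to -0.38 (SE 0.90), both still above the median gene.

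The separation of the raw CPM values gives a count for all 8 members. At 405 min 4 of the 8 (Hsp90aa1, Hsp90ab1, Chordc1 and Stip1) had all 4 libraries above all 4 controls, against 2.68% of 22359 genes. At 135 min Chordc1 alone did (0.729% of genes), and at 45 min none did (0.698%). The Chordc1 separation at 135 min rested on few fragments. Replicate 3 held 16 fragments (28.1 CPM), against 19 in control replicate 2 (22.1 CPM), the highest control.

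Chordc1, also called Chp-1, binds the Hsp90 ATPase domain in its nucleotide-bound state. It measured 13.6, 22.1, 17.95 and 0 CPM in the controls and 94.2, 26.0, 33.3 and 20.8 CPM at 45 min. At 135 min it measured 122, 151, 28.1 and 34.1 CPM, and at 405 min 215, 55.9, 74.4 and 379 CPM. Its values at 135 and 405 min were all above the control range. Whether the 5 units in its promoter window bear on this was not tested. Stip1, whose window held no pair, also had all 4 libraries at 405 min above the controls. Because control replicate 4 had no fragment, Chordc1 could not enter the fit. By a 2-sided exact permutation test of mean log2(CPM + 1), 4 libraries against 4, the difference from control was 2.06 at 45 min (p = 0.0571), 2.89 at 135 min (p = 0.0286) and 3.94 at 405 min (p = 0.0286). The smallest p this design can give is 0.0286, and adjusted over the 9 tests of the 3 members outside the fit all 3 values became 0.129.

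Stip1 was the most even member in the controls, at 20.3, 20.9, 21.3 and 16.2 CPM, but these values rested on only 14 to 19 fragments a library. At 45 min it measured 597, 98.7, 20.4 and 41.6 CPM, and at 135 min 59.9, 378, 14.0 and 37.5 CPM. At 405 min the values were 1231, 39.0, 50.5 and 1168 CPM. All 4 libraries at 405 min stood above the controls, but replicates 2 and 3 (30 and 70 fragments) only by a small margin. At 45 and 135 min 1 library each (replicate 3) fell inside or below the control range.

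Ahsa1 and Fkbp4 gave no separation from control at any time. Ahsa1, the activator of the Hsp90 ATPase, measured 5.65, 10.4, 8.98 and 16.2 CPM in the controls and 81.0, 15.6, 29.9 and 9.61 CPM at 45 min. It stood at 9.19, 44.4, 3.51 and 0 CPM at 135 min and at 439.9, 1.30, 23.1 and 198 CPM at 405 min. The 2 high values at 405 min came from the deepest libraries of that time, and replicate 2, with 1 fragment, lay below every control. Fkbp4, the FKBP52 immunophilin of steroid receptor complexes, measured 48.6, 9.29, 30.3 and 65.9 CPM in the controls and 36.6, 2.78, 45.6 and 9.61 CPM at 45 min. At 135 min it was at 0.634, 29.1, 0 and 1.14 CPM, and at 405 min at 409, 31.2, 6.50 and 39.9 CPM. Its mean log2(CPM + 1) at 135 min was 3.33 below control (exact permutation p = 0.0571, adjusted 0.129), the opposite sign to Chordc1, and the values at 405 min spanned those of the controls.

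Ptges3 measured 47.4, 62.7, 38.1 and 60.1 CPM in the controls, 778, 489, 68.0 and 24.0 CPM at 45 min, 132, 447, 75.4 and 46.6 CPM at 135 min, and 639.9, 52.0, 134 and 912 CPM at 405 min. Cdc37 measured 9.03, 37.1, 24.7 and 70.5 CPM in the controls, 102, 37.7, 27.2 and 16.02 CPM at 45 min, 51.4, 93.1, 1.75 and 63.6 CPM at 135 min, and 180.2, 48.1, 57.0 and 155 CPM at 405 min. Both overlapped the controls at every time. Their log2 fold changes at 45 min were 3.15 (SE 1.20) and 0.74 (SE 0.88), and at 135 min 1.92 (SE 1.14) and 0.79 (SE 0.88), and with ribosomal protein counts as the library size all 4 turned negative, to -0.03, -1.23, -0.22 and -0.73.

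The course was next read in the 7 libraries over 4% alone, 2 at 45 min, 2 at 135 min and 3 at 405 min. Here all 8 members passed the filter among 8605 genes. Hsp90aa1 had a mean of 2926 ± 378 CPM (SD, n = 2) at 45 min, 6789.7 ± 2783 CPM (n = 2) at 135 min and 15299.7 ± 4017 CPM (n = 3) at 405 min. Hsp90ab1 had means of 2721 ± 219, 4524 ± 1139 and 8284 ± 2241 CPM in the same libraries. For both paralogs every library of a later time exceeded every library of the earlier one at each step, a pattern shared by 51 of 22279 genes (0.229%). Chordc1 stood at 60.1 ± 48.2 CPM at 45 min, 137 ± 20.04 CPM at 135 min and 223 ± 152 CPM at 405 min, and its 135 and 405 min libraries overlapped.

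Step by step, libraries did not overlap for 3 members at 135 over 45 min (Hsp90aa1, Hsp90ab1 and Chordc1, against 18.5% of genes), for 2 at 405 over 135 min (both Hsp90 genes, against 2.56%), and for the same 2 at 405 over 45 min (8.88%). In the edgeR fit no gene was called in any of these 3 comparisons (smallest adjusted p of a member 0.690). From 45 to 405 min the log2 fold change was 2.42 (SE 1.04) for Hsp90aa1, 1.63 (SE 0.92) for Hsp90ab1, 1.98 (SE 0.86) for Chordc1, 2.21 (SE 1.16) for Ahsa1 and 2.91 (SE 1.73) for Fkbp4. For Stip1 it was 1.30 (SE 1.27), for Cdc37 0.95 (SE 0.70) and for Ptges3 -0.11 (SE 0.87), with a sign that turned with ribosomal protein counts as library size, with the replicate block and with a class threshold of 6%. Before adjustment, Hsp90aa1 and Chordc1 were under the 0.05 threshold in edgeR, as were 3.01% of genes in the higher direction, and after it both stood at an adjusted p of 0.690. DESeq2 called Hsp90aa1 and no other member (2.43, SE 0.65, adjusted p = 0.0297), beside 41 of 8605 genes called higher (0.476%). Before adjustment no member was under the threshold in the higher direction at 135 against 45 min (1.28% of genes), and Ahsa1 alone was at 405 against 135 min (3.24, SE 1.22, edgeR adjusted p = 0.909, against 1.46% of genes).

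The members differed in sign over the first step in these 7 libraries. At 135 against 45 min the fitted log2 change was 1.15 (SE 1.05), 0.66 (SE 0.95) and 1.08 (SE 0.88) for Hsp90aa1, Hsp90ab1 and Chordc1. It was -1.03 (SE 1.18) for Ahsa1, -0.62 (SE 1.70) for Fkbp4, -0.86 (SE 1.34) for Stip1, -1.31 (SE 0.97) for Ptges3 and -0.08 (SE 0.74) for Cdc37. None of these steps passed the test (edgeR adjusted p from 0.997 to 0.998), and the signs of Cdc37 and Fkbp4 turned with the scaling. Over all libraries, same-numbered libraries of 45 and 135 min deviated together and were also of the same library kind. Within these pairs, Hsp90aa1 and Hsp90ab1 were higher at 135 min in 4 of 4 and Chordc1 in 3 of 4. Cdc37 and Ptges3 were higher in 2 of 4 pairs, and Ahsa1, Stip1 and Fkbp4 in 1 of 4. In the fit blocked by replicate number, the change over all libraries was 1.13 (SE 1.58) for Hsp90aa1 and 0.99 (SE 1.63) for Hsp90ab1, and no gene was called. At 405 against 135 min all 8 were positive, from 0.89 (SE 0.82) for Chordc1 to 3.53 (SE 1.80) for Fkbp4, with a median of 1.24 against 0.16 over all genes tested. Single libraries set the size of both ends. Chordc1 fell to 0.13 without 405 min replicate 4 and Fkbp4 to 1.06 without 405 min replicate 1, while without 135 min replicate 2 Fkbp4 stood at 7.76.

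**Figure D2:**
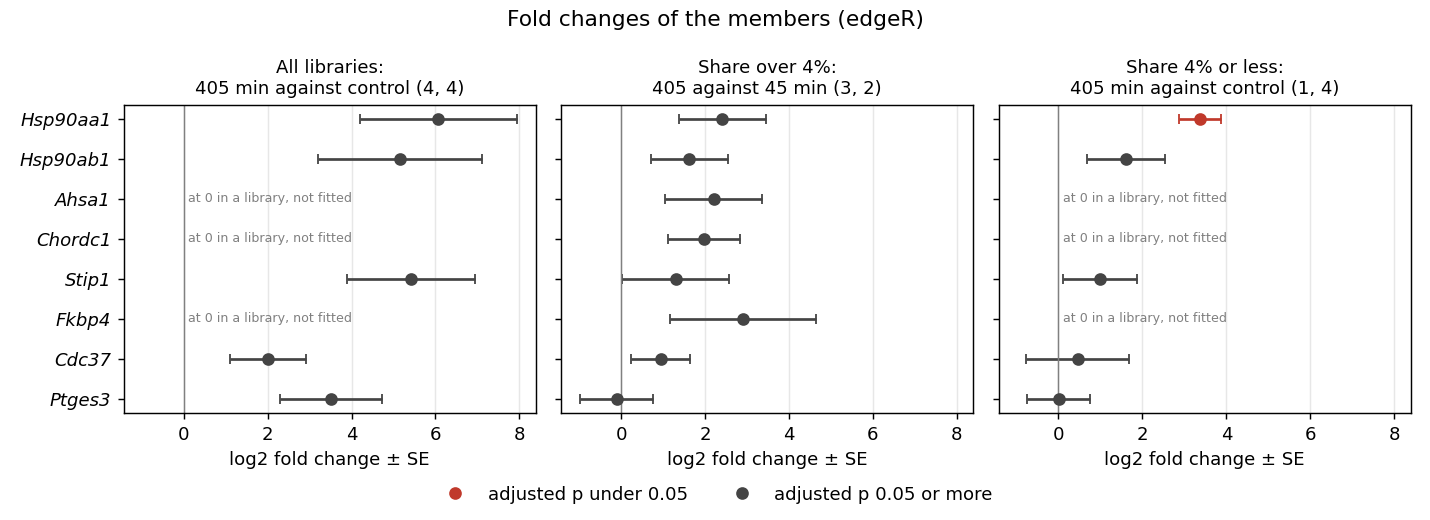
edgeR log2 fold changes with their standard errors for the members in 3 fits, with the number of libraries in each arm in brackets and red for an adjusted p under 0.05. Hsp90aa1 in the libraries of 4% or less (3.37, SE 0.50) is the only red point, and its 405 min arm is 1 library whose spread was taken from the other groups. The left panel uses TMM scaling, and with ribosomal protein counts as the library size Cdc37 and Ptges3 turn negative there. In the middle panel Ptges3 lies near 0.

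Within the 9 libraries of 4% or less, where the controls sit, 2 of 8366 genes were called at 405 min against control, and Hsp90aa1 was 1 of them (0.0239%). The 405 min arm here was a single library (replicate 2), so the test holds no spread between 405 min libraries and compares that library with the controls. The log2 fold change of Hsp90aa1 was 3.37 (SE 0.50, edgeR adjusted p = 0.0257), from a control mean of 238 ± 149.7 CPM (SD, n = 4) to 2445 CPM in the library at 405 min, which was assumed to vary like the others. The other was Hspa1b, the inducible Hsp70 (5.31, SE 0.53, adjusted p = 0.000429). The call of Hsp90aa1 was lost with filterByExpr (adjusted p = 0.162), with the replicate number as a block (adjusted p = 0.999758), and on leaving out control replicate 1 or 3 or 45 min replicate 3 or 4 (0.137 to 0.395). DESeq2 called it too (adjusted p = 0.000257), beside 0.0359% of genes called higher. Hsp90ab1 measured 1.60 (SE 0.92, edgeR adjusted p = 0.99992) in the same comparison, and Stip1 0.99 (SE 0.89), Cdc37 0.46 (SE 1.22) and Ptges3 0.005 (SE 0.76) did not pass the test either. The other 3 members had a count of 0 in a library and were not fitted.

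At the earlier times no member passed the test in these libraries. At 45 min Hsp90aa1 stood at 129.8 ± 6.89 CPM (SD, n = 2), with a log2 fold change of -0.87 (SE 0.47), and Hsp90ab1 at 22.3 ± 8.88 CPM (n = 2), with -3.34 (SE 0.98). The latter had an unadjusted edgeR p of 0.00373 and an adjusted p of 0.999. At 135 min the 5 fitted members lay between -0.09 (Cdc37) and 0.56 (Hsp90aa1).

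The inducible and the constitutive paralog were then compared within each library, by the log2 ratio of their counts, which does not depend on depth. The ratio was 0.58, -0.41, 0.17 and 1.71 in the controls and -0.11, 0.32, 2.22 and 2.90 at 45 min. It was 0.72, 0.37, 0.21 and 1.71 at 135 min and 0.31, 1.78, 1.35 and 1.02 at 405 min. Hsp90aa1 counts exceeded those of Hsp90ab1 in 14 of the 16 libraries, and per length, by FPKM, Hsp90aa1 exceeded Hsp90ab1 in 12 of 16. Over all libraries the groups overlapped throughout. Means were 0.51 ± 0.89 (SD, n = 4) in control, 1.33 ± 1.46 at 45 min, 0.75 ± 0.67 at 135 min and 1.11 ± 0.62 at 405 min. The differences from control were 0.82 (exact permutation p = 0.343), 0.24 (p = 0.629) and 0.60 (p = 0.286), adjusted to 0.514, 0.629 and 0.514. Each was smaller than the SD of the treated group, and no shift of the ratio was detectable with 4 libraries a group, both kinds together. Within the libraries of 4% or less, the mean was 0.51 in control and 2.56 ± 0.48 (n = 2) at 45 min. It was 0.96 ± 1.06 (n = 2) at 135 min and 1.78 in the single library at 405 min. Both 45 min ratios there lay above the highest control (1.71), but on only 42 and 10 Hsp90ab1 fragments.

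**Figure D3:**
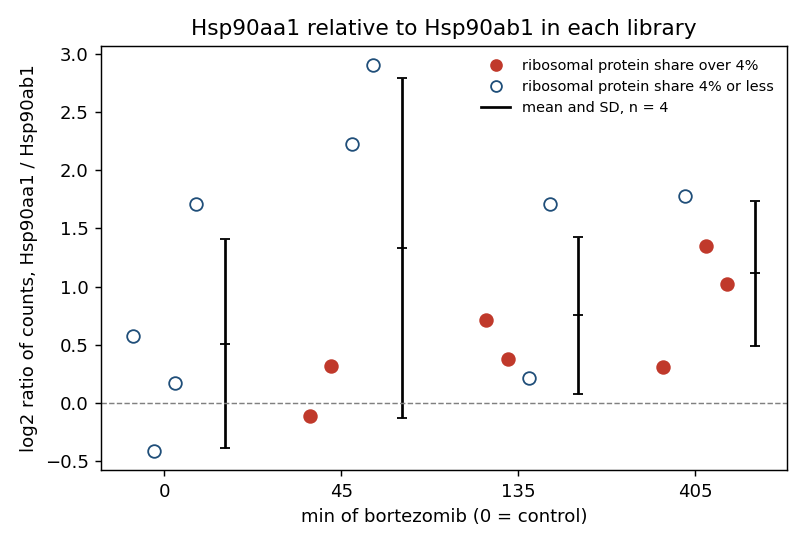
The log2 ratio of Hsp90aa1 to Hsp90ab1 counts in each library by minutes of bortezomib, with filled points for libraries over 4% ribosomal protein share, open points for the others, and the mean and SD of each group of 4. The open points at 45 min (2.22 and 2.90) are the highest, and the filled points average 0.10, 0.55 and 0.89 at 45, 135 and 405 min.

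Within the libraries over 4% the ratio averaged 0.10 ± 0.30 (SD, n = 2) at 45 min, 0.55 ± 0.24 (n = 2) at 135 min and 0.89 ± 0.53 (n = 3) at 405 min. The difference between 405 and 45 min was 0.79, but replicate 1 at 405 min (0.31) lay at the level of replicate 2 at 45 min (0.32). This overlap depended on using counts. The log2 ratio of FPKM was -0.87 and 0.11 at 45 min and 0.56, 1.15 and 0.82 at 405 min, a difference of 1.22 with no overlap. The step from counts to FPKM was uneven. Replicate 1 moved from -0.11 to -0.87 at 45 min and from 0.31 to 0.56 at 405 min. The other libraries of these times moved down, from 0.32 to 0.11, 1.35 to 1.15 and 1.02 to 0.82. The change between the 2 measures, and the overlap by counts, thus rested on replicate 1. Without it, the 45 min ratio lay below both 405 min ratios by either measure. These were 0.32 against 1.35 and 1.02 by counts, and 0.11 against 1.15 and 0.82 by FPKM. The source of the FPKM scaling of replicate 1 was not tested. The 4 libraries with the highest ratios at treated times all had a share of 4% or less, and their Hsp90ab1 values rested on 10, 42, 67 and 549 fragments.

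Levels of different genes were compared per length, by FPKM. In the controls Hsp90ab1 (86.4 ± 87.5 FPKM, SD, n = 4) and Hsp90aa1 (76.4 ± 46.4) led and did not differ beyond their spread. They were followed by Ptges3 (24.9 ± 5.43), Fkbp4 (16.4 ± 10.4), Cdc37 (13.1 ± 9.82), Stip1 (8.87 ± 1.53), Ahsa1 (7.99 ± 3.07) and Chordc1 (5.49 ± 3.98), whose neighbours in this order overlapped. At 405 min in the 3 libraries over 4%, Hsp90aa1 reached 6043 ± 2573 FPKM and Hsp90ab1 3401 ± 1521. Ptges3 stood at 395 ± 294 FPKM, Stip1 at 388 ± 350.1, Ahsa1 at 173 ± 138, Chordc1 at 136 ± 99.1, Fkbp4 at 58.4 ± 78.1 and Cdc37 at 54.8 ± 30.9. In FPKM percentile within a library, Hsp90aa1 was at or above 90.3 in all 16 libraries. Hsp90ab1 fell to 54.8 in control replicate 4, 56.1 in replicate 3 at 45 min and 41.0 in replicate 4 at 45 min, all libraries of 4% or less.

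**Figure D4:**
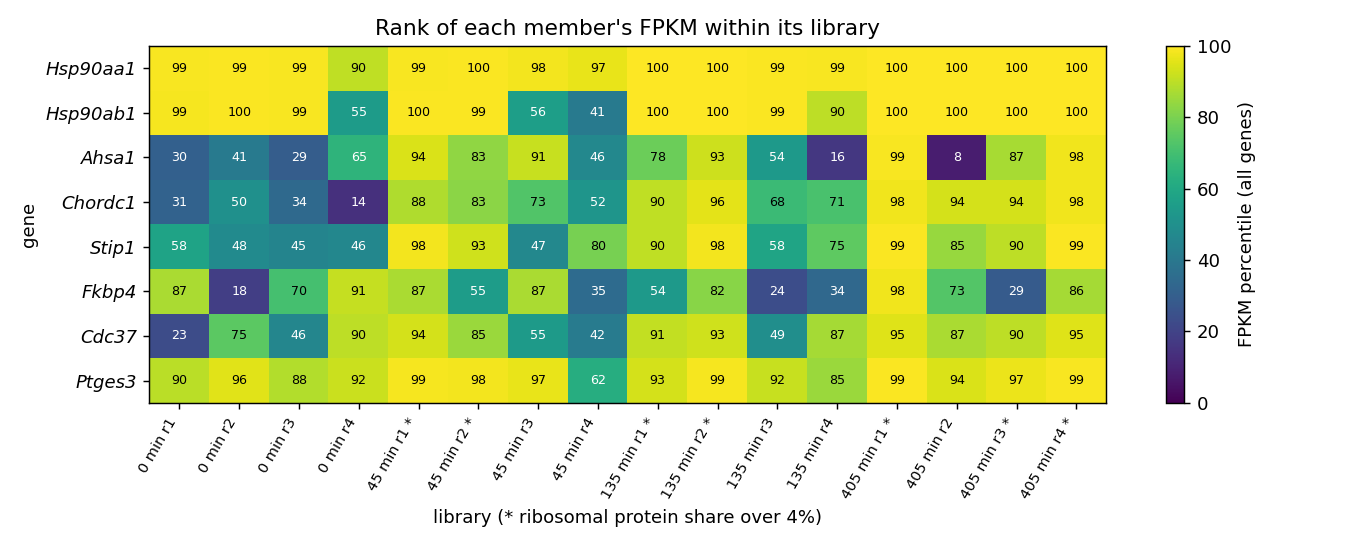
Percentile of each member's FPKM among all genes of the same library, for 16 libraries ordered by time and replicate, with an asterisk on those over 4% ribosomal protein share. Hsp90aa1 stays at or above the 90.3 percentile throughout, while Fkbp4 ranges from 18.4 to 98.01 and Ahsa1 from 7.93 to 98.9.

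The rest of the Hsp90 machinery was read from a list of 26 genes (other Hsp90 paralogs, co-chaperones and linked factors), of which 10 passed the filter over all libraries. None was called at any time. With TMM scaling, log2 fold changes against control were positive for 7 of the 10 at 45 min, for 4 at 135 min and for 7 at 405 min, with a median in the last of 0.60 against 0.11 over all genes. The largest were Hsp90b1, the endoplasmic reticulum paralog, at 4.25 (SE 1.87), Ppid, the cyclophilin 40 co-chaperone, at 2.72 (SE 1.06), Ahsa2, a homolog of Ahsa1, at 2.36 (SE 0.69) and Ppp5c, the Hsp90-bound phosphatase, at 1.25 (SE 1.001). DESeq2 called 3 of the 10 at 405 min and 1 at 45 min, where it called 6.98% and 4.45% of all genes higher. In the libraries over 4%, 21 of the 26 were fitted and none was called. There Hsp90b1 measured 3243 and 3977 CPM at 45 min, 3567 and 2574 CPM at 135 min, and 2033, 1475 and 3185 CPM at 405 min, a log2 change of -0.65 (SE 0.81) from 45 to 405 min. Over the same libraries every Hsp90aa1 value at 405 min exceeded every one at 45 min. The difference between the 2 paralogs' changes was not tested.

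As a comparison, 13 other chaperone genes known as heat shock factor targets were taken. Of these, 9 were fitted over all libraries, none was called, and with TMM scaling all 9 were positive at 405 min with a median log2 fold change of 4.10. Hspa1b, the one gene of this list called in any comparison (within the libraries of 4% or less), measured 24.8, 48.8, 37.0 and 19.7 CPM in the controls. In the libraries over 4% it measured 71.6 and 163 CPM at 45 min, 2427 and 769.98 CPM at 135 min, and 2834, 10097 and 5899 CPM at 405 min. Its log2 change from 45 to 405 min was 5.74 (SE 1.26, edgeR adjusted p = 0.672), beside 2.42 (SE 1.04) for Hsp90aa1. Of the 12 list members with a promoter window, 10 held a pair of units and 3 held 3 units in a row. Of the 23 genes with a window on the 26-gene Hsp90 list, 4 held a pair and 0 held 3 units, and over all windows the shares were 15.1% and 0.603%.

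The genes whose log2(CPM + 1) followed Hsp90aa1 most closely over the 7 libraries over 4%, among 5029 genes, were Cttnbp2nl (Pearson r = 0.977), Ahsa2 (0.970), Hspa1b (0.965), Jag1 (0.942) and Itpripl2 (0.936). Hsp90ab1 came next at 0.927, while Cdc37 (0.38), Stip1 (0.10) and Ptges3 (-0.22) ranked far below, and 10 genes exceeded 0.9. Chordc1 (0.64), Ahsa1 (0.33) and Fkbp4 (0.19) were outside the all-library fit and so were not ranked. Over all 16 libraries the closest were Hspd1 (0.975), Hsp90ab1 (0.962), Fth1 (0.957), Dnaja1 (0.957) and Dnajc2 (0.952), with 58 genes over 0.9. Ptges3 (0.78), Stip1 (0.74) and Cdc37 (0.55) were higher here than over the 7 libraries. These are descriptions over few points that share depth and library kind. Among the co-chaperones themselves, Ahsa1 ran closest to Fkbp4 (r = 0.960), Cdc37 (0.954) and Stip1 (0.930) over the 7 libraries and Chordc1 ran closest to Cdc37 (0.851) and Hsp90ab1 (0.794). Most of this was absent in the 9 libraries of 4% or less. There Ahsa1 gave 0.57 with Fkbp4, -0.05 with Cdc37 and -0.49 with Stip1. Chordc1 gave -0.25 with Cdc37 and 0.44 with Hsp90ab1.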

How the data were processed

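The members and gene lists were chosen with earlier results of these data known. Per the labels, total RNA was turned into libraries with NuGEN's Encore Complete kit. The study's methods also describe poly(A) selection and do not say which libraries were made how. The authors deposited, for each library, estimated counts (fragments assigned to each gene) and FPKM values (fragments per length and depth, scaled by their software). The submitters' processing notes name mm10 and the methods mm9, so no coordinate was taken from the tables. Aligner and versions are not given in the sources used here.

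Counts, 98.4% to 99.8% of them whole within 0.001, were rounded. In the file of 1 library, 27 symbols that had become dates were restored by row order. None of the 120 pairs of libraries was identical. CPM is per 1000000 assigned fragments, with no TMM scaling. Correlations used a pseudocount of 1 and ratios 0.5.

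The main test was edgeR 4.0.16 (R 4.3.3) quasi-likelihood with TMM, 1 mean per group over all 16 libraries, genes with at least 1 count in every library, and Benjamini-Hochberg adjustment over all genes tested (threshold 0.05). The study's methods name edgeR and the removal of zero counts. Library kinds were split at a ribosomal protein share of 4% (97 symbols) and refitted. SE is the log2 fold change over the root of F. The script was tested on simulated data. Members with a 0 were compared by 2-sided exact permutation tests. Alternatives were filterByExpr, no filter, RLE, ribosomal protein counts as library size, DESeq2 1.42.0, the compared groups alone, a replicate block, thresholds of 2% and 6%, and each library left out, and for the ratio pseudocounts of 0.1 and 1, FPKM values, same-numbered differences and the libraries of 4% or less. The block within the libraries of 4% or less was added after seeing the data. Replicate numbers paired the 135 and 45 min libraries (correlation of same-numbered deviations 0.487 to 0.536 in every pair), and no other comparison met that rule. At 45 and 135 min same-numbered libraries were also of the same kind, so replicate number and library kind cannot be told apart there. At 405 against 135 min the kinds differed in replicates 2 and 4, and the correlation was -0.63 and -0.51. Named genes were all members, listed genes past the threshold or else the 4 with the largest change at 405 min, and the 5 closest to Hsp90aa1. Of the tables, FPKM served only levels between genes and, beside counts, the paralog ratio. Depth limits genes near 0 in the shallow libraries. Positions came from GENCODE M1 (NCBIM37) and promoters from RefSeq (GRCm38.p6).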

Additional observations from a re-analysis of the deposited data

Results flagged for a closer look

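Of 36 groups of 4 libraries tested for a value far from the others (8 members and the paralog ratio in 4 groups), 2 were flagged, and chance gives about 1.8. Chordc1 in control replicate 4 had log2(CPM + 1) of 0, against 3.86 to 4.53 in the other 3 controls. Cdc37 in replicate 3 at 135 min, the shallowest library, had 1.46, against 5.71 to 6.56 in the other 3.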

How the results depend on the processing

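With the replicate number as a block, 0 members were called at 405 min against control in the libraries of 4% or less, where the main fit called 1, and filterByExpr called 0 there too. The block changed no other call, and leaving out 1 library gave 0 to 1. DESeq2 called 2 members at 45 min and 4 at 405 min against control, 1 at 405 against 45 min over 4%, and 1 and 3 genes of the 26-gene list at 45 and 405 min. That list had 0 to 1 called at 135 min in the libraries of 4% or less when 1 library was left out (1 without 135 min replicate 4).

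Signs turned as follows, and the cause was not tested. With ribosomal protein counts as library size, Hsp90aa1 -0.17, Hsp90ab1 -0.77, Cdc37 -1.23 and Ptges3 -0.029 at 45 min, Cdc37 -0.73 and Ptges3 -0.22 at 135 min, and Cdc37 -1.34 and Ptges3 -0.38 at 405 min, all against control. Over 4%, at 135 against 45 min, Fkbp4 0.029 under that scaling, and Cdc37 0.0028 (RLE), 0.39 (ribosomal protein counts), 0.0027 (DESeq2) and 0.049 (replicate block). Ptges3 at 405 against 45 min gave 0.37 with the threshold at 6%, 0.093 with ribosomal protein counts and 0.079 with the replicate block. At 4% or less against control, the block gave Hsp90ab1 1.27 at 135 min and Ptges3 -0.26 at 405 min, and filterByExpr gave Ptges3 -0.033 at 135 min. Ahsa1 at 135 min gave 1.27 with filterByExpr and 1.31 with no filter, as edgeR log2 fold changes.

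With 1 library left out (a lone library of an arm was assumed to vary like the others), the ranges that crossed 0 were, against control over all libraries, -0.054 to 1.25 for Cdc37 at 45 min (negative without replicate 1), -1.58 to 0.26 for Ahsa1 at 135 min, -0.58 to 1.34 for Fkbp4 at 405 min, and -0.077 to 0.64 for the paralog ratio at 135 min. Over 4%, they were at 135 against 45 min -2.32 to 0.50 for Ahsa1, -2.46 to 0.85 for Stip1, -4.86 to 2.09 for Fkbp4 and -0.55 to 0.72 for Cdc37, and at 405 against 45 min -0.82 to 0.37 for Ptges3, with 45 min replicate 1 among the libraries that turned each. At 4% or less, they were -1.12 to 0.41 (45 min), -0.21 to 0.26 (135 min) and -0.11 to 0.12 (405 min) for Ptges3, and at 135 min -1.69 to 0.95 for Hsp90ab1, -0.76 to 0.87 for Stip1 and -4.47 to 0.81 for Cdc37. Hsp90aa1 at 405 min stayed positive in every setting run, from 2.81 to 6.98 over all libraries.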
